A study of Mus musculus with 6 samples.

Results

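The TNF receptor superfamily was followed in 6 libraries from leukaemic mouse bone marrow. Its members are the rows of the deposited table whose gene name starts with Tnfrsf, together with Cd27, Cd40, Fas, Ltbr, Ngfr, Edar, Eda2r and Relt, which gave 28 of 55401 genes. They were taken by name, with earlier results of these data known. All 6 animals were secondary recipients of a HoxA9/Meis1 leukaemia, so every group carries those drivers and no library here is from normal marrow. Mice 62, 63 and 87 had been given lymphoid leukaemic stem cells and gave the lymphoid cells (Lym+, called Lym here), and mice 56, 57 and 91 had been given Lin- leukaemic stem cells and gave the Lin-cKit+ progenitor cells (Lin-). Each mouse gave 1 library of total RNA, and the labels list no strain, age, treatment or donor for a mouse, so whether animals share a donor leukaemia is not known. Throughout, values for Lym follow the order of mice 62, 63, 87 and values for Lin- the order of mice 56, 57, 91.

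Receptors of this family act as trimers on the cell surface and bind trimeric ligands of the TNF family. Those with a death domain inside the cell can start apoptosis or necroptosis through adaptors such as Fadd and Tradd, and the others recruit TRAF adaptors that switch on NF-kB. In blood the family is known for the survival of B cells, for the costimulation of lymphocytes and for death signals, and some members are decoys that bind ligand without signalling. Cd27 is also found on blood progenitor cells of the mouse.

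Recovered reads ranged from 18537700 to 22634286 per library. More genes had reads in Lym mice 63 (24027) and 87 (23836) than in the other libraries (19427 to 20358), which bears on members with few reads. The cause was not tested. By correlation, the library of Lym mouse 87 lay nearer to the Lin- libraries than to its own group. Over the 14273 genes tested, its log2 values had a Pearson r of 0.965 to 0.979 with the Lin- libraries, but of 0.927 and 0.948 with Lym mice 62 and 63. Lym mice 62 and 63 had an r of 0.958 with each other, and mouse 63 had 0.961 with Lin- mouse 57. Lym mouse 62 had 0.919 to 0.943 with the Lin- libraries. These are correlations across genes, which are not replicates. Among the 16 members tested, mouse 87 was nearer to the Lin- mean than to the mean of its own group's other mice in 13. The same count was not made over all genes or for another mouse, so it does not show that mouse 87 was unusual. Lym mouse 62 was prepared from 1 ng of RNA and the rest from 2 ng. The labels were set beside markers. Kit, Cd34, Flt3, Ptprc and Myb summed to at least 49086 normalized counts in each library, with Myb the largest part. Kit alone averaged 4813 in Lin-, the cells labelled cKit+, and 11362 in Lym, and the groups overlapped. The B-cell markers Cd79a, Pax5 and Ms4a1 were absent or nearly so, at 4.48 or less in each library. Fcer2a reached 2.24 at most, and Cr2 read 14.6, 4.48 and 0 for Lym and 0 in each Lin- library.

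Levels are given as normalized counts, the gene count after division by a size factor for the library. A difference is Lym minus Lin- on the scale of log2(normalized count + 2), with its standard error and a Benjamini-Hochberg adjusted p from limma over all genes tested. 16 members reached 10 normalized counts in 3 or more libraries and were tested, and 12 did not.

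3 promoter windows are printed for the members that the results turn on. Tnfrsf13b was the most abundant member, Cd27 varied most between mice, and Ltbr is the steady family member nearest to Cd27. Each window holds the 250 bases before the RefSeq start site (build GRCm38.p6), 5′ to 3′ on the strand of the gene. Capitals mark E boxes, the motif CANNTG searched on both strands, a class of site bound by basic helix-loop-helix factors.
Cd27, chr6:125237028-125237277, minus strand: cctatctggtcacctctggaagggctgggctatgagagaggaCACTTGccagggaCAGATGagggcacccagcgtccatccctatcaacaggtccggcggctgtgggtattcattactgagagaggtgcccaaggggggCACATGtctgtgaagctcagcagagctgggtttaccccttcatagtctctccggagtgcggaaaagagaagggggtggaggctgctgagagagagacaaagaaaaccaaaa
Ltbr, chr6:125313886-125314135, minus strand: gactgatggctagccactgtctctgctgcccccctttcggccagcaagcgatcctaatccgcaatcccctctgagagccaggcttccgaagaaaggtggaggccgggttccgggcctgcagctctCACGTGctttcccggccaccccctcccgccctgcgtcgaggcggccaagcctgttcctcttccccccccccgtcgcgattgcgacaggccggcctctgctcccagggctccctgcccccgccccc
Tnfrsf13b, chr11:61126505-61126754, plus strand: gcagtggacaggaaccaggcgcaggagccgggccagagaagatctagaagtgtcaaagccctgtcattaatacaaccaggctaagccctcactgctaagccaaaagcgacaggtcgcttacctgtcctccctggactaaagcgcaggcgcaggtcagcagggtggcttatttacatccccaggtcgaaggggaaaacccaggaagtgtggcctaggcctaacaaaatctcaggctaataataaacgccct
The window of Cd27 held 3 E boxes, that of Ltbr 1 and that of Tnfrsf13b 0. At least 1 E box lay in 66.2% of 32851 mouse windows of this length. It lay in 20 of the 26 windows of the 23 members that the RefSeq table holds. The GC content was 56.0% for Cd27, 69.2% for Ltbr and 54.0% for Tnfrsf13b, beside a median of 52.4% over all windows. These matches describe letters and not binding.

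8 receptors made up the abundant part of the family. Per length, as normalized counts per kb of exon averaged over the 6 libraries, Tnfrsf13b came first (886), before Tnfrsf1a (724), Tnfrsf14 (503), Ltbr (443), Cd27 (351), Tnfrsf1b (266), Tnfrsf21 (251) and Relt (141). The level per kb then dropped to 28.5 for Tnfrsf18, 25.4 for Tnfrsf4, 21.8 for Tnfrsf26 and 19.3 for Tnfrsf22. Tnfrsf12a (10.5), Tnfrsf10b (9.68), Fas (4.13) and Tnfrsf23 (3.43) were the lowest of those tested. Tnfrsf13b spanned 763 to 1117 per kb over the libraries and Tnfrsf1a 595 to 875, so the leading pair overlapped. Cd27, at 65.1 to 991 per kb, overlapped each of the other 7. Relt, at 114 to 165 per kb, lay above every library of the 8 lower genes tested. Within each single library Tnfrsf13b was also first by reads, with 23.1% to 28.3% of the family's reads.

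**Figure D1:**
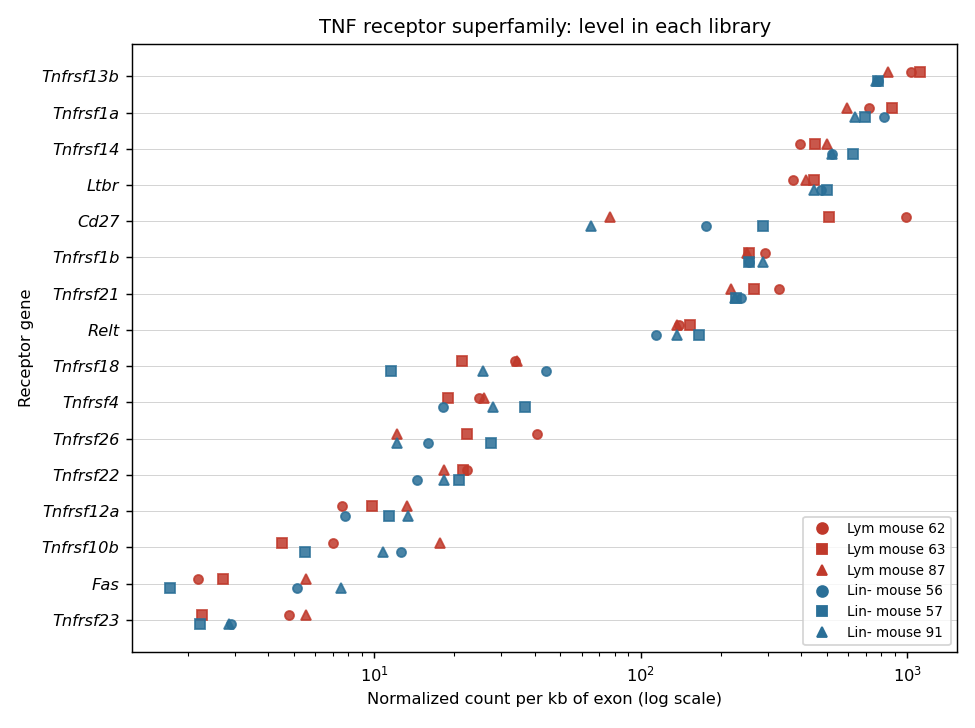
Level of the 16 tested receptors in each of the 6 libraries, as normalized counts per kb of exon on a log axis, with Lym and Lin- mice in separate colours. The 8 upper genes average 141 to 886 per kb, and Cd27 spreads from 65.1 to 991.

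Between Lym and Lin- cells no member passed the test. Of the 16 tested, 9 were higher and 7 lower in Lym, and limma called 0 at an adjusted p of 0.05, as it did over all genes (0% called). edgeR also called 0 members and 0% of genes, and DESeq2 called 0 of the 13 members it gave an adjusted p, beside 1.71% of genes. The authors' deposited table called 0 of 26 members, beside 0.32% of genes, with adjusted p-values of 0.904 to 0.999. At an unadjusted p under 0.05, 1 of 16 members passed in each of limma, edgeR and DESeq2, beside 10.2%, 10.1% and 11.2% of genes. The median log2 difference was 0.036 over the tested members and -0.010 over all genes. The groups did not overlap in 3 members, beside 15.6% of genes. 1 of them, Tnfrsf13b, was higher in Lym (8.49% of genes), and the others, Tnfrsf14 and Ltbr, were higher in Lin- (7.08% of genes). In such bulk libraries, fewer cells of a type and less RNA per cell cannot be told apart.

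**Figure D2:**
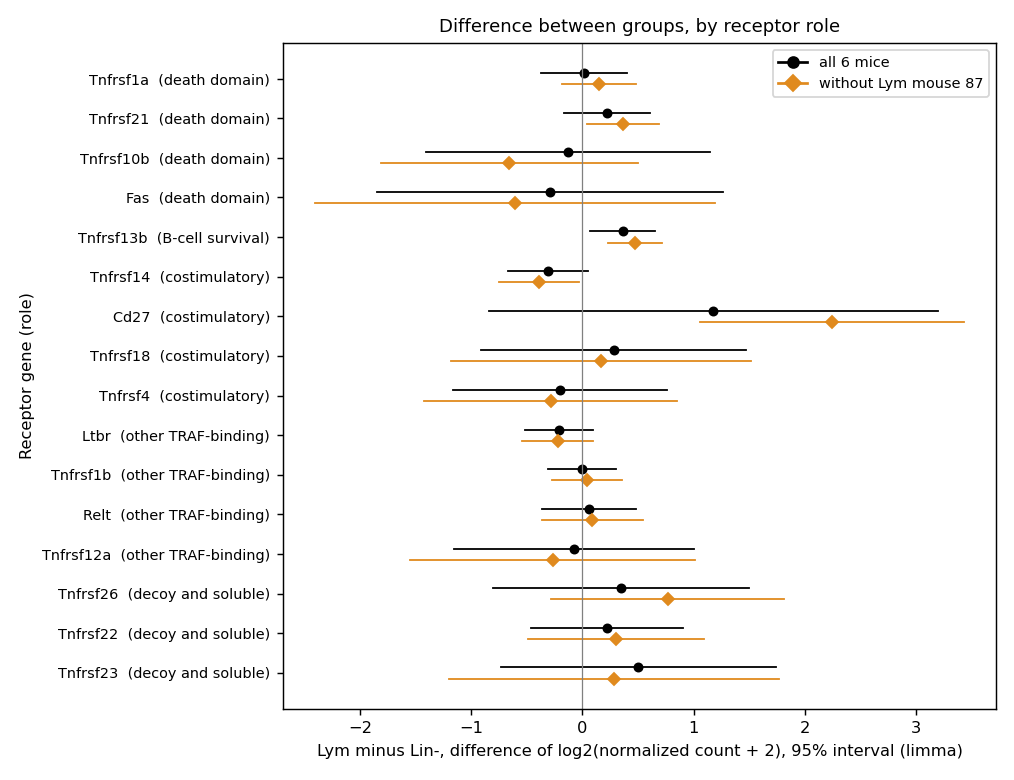
Lym minus Lin- difference of log2(normalized count + 2) for each tested receptor with its 95% interval from limma, for all 6 mice and without Lym mouse 87. Cd27 moves most, from 1.18 to 2.25, and the interval of Tnfrsf13b lies above 0 in the pair of fits drawn, though it spans 0 with any other 1 mouse left out.

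Of the receptors for B-cell survival, Tnfrsf13b was the only one tested. It encodes TACI, which binds the ligands BAFF and APRIL on B cells (chromosome 11, 61126755 to 61149372, plus strand, GRCm38). Its normalized counts read 2923, 3167 and 2409.7 for Lym and 2203, 2202 and 2165 for Lin-. All Lym mice lay above all Lin- mice, with mouse 87 the nearest to them, and the Lin- mice were almost level. The log2 difference was 0.36 ± 0.13 (95% interval 0.067 to 0.66, limma adjusted p = 0.451), a ratio of means of 1.29. Without Lym mouse 87 it was 0.47 ± 0.11, with a limma adjusted p of 0.0285. With any other 1 mouse left out its 95% interval spanned 0, with lower ends of -0.048 to -0.0054 and limma adjusted p-values of 0.605 to 0.857.

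The other receptors of B-cell survival had few reads. Tnfrsf13c, the BAFF receptor of B cells, read 3.36, 7.83 and 5.72 for Lym and 11.5, 7.92 and 1.03 for Lin-. Tnfrsf17, the receptor BCMA of plasma cells, reached 8.82 at most, on 26 reads in all. Cd40, through which T cells help B cells, read 0, 0 and 14.3 for Lym and 4.41, 15.8 and 6.19 for Lin-, so that it was at 0 in the Lym mice other than 87. A floor of 3 reads equals 2.64 to 3.36 normalized counts in these libraries and covers counting error only. None of the B-cell markers Cd79a, Pax5, Ms4a1, Cr2 and Fcer2a passed the filter, and the sum of these 5 ran from 3.81 to 16.8 in Lym and 0 to 5.16 in Lin-. For 4 plasma cell markers, with Jchain at 0 throughout, it ran from 4.49 to 15.7 in Lym and 0 to 22.9 in Lin-. The part of these cells in the level of Tnfrsf13b was not tested.

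Cd27, a costimulatory receptor of lymphocytes whose ligand is CD70, differed more between mice than any other tested member (chromosome 6, 125232622 to 125237010, minus strand). Its normalized counts read 2307, 1189 and 178 for Lym and 411, 671 and 152 for Lin-. Lym mice 62 and 63 were above all others, while Lym mouse 87 was below Lin- mice 56 and 57. The highest Lym mouse was 12.9-fold above the lowest, and the highest Lin- mouse 4.43-fold above the lowest. The within-group SD of its log2 values was 1.55, larger than in 97.7% of the genes tested. The median of that SD was 0.30 over the tested members and 0.30 over all genes.

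The log2 difference of Cd27 was 1.18 ± 0.88 (95% interval -0.84 to 3.19, limma adjusted p = 0.646). Without Lym mouse 87 it was 2.25 ± 0.53, with an adjusted p of 0.0307 in limma, 0.0396 in edgeR and 0.0527 in DESeq2. It moved the other way, to 0.41 ± 0.83 without Lym mouse 62 (limma adjusted p = 0.950) and to 0.59 ± 0.93 without Lin- mouse 91 (limma adjusted p = 0.926). Cd27 took 19.4%, 10.6% and 2.08% of the family's reads for Lym and 4.43%, 7.03% and 1.76% for Lin-. It thus ranked between the second and the eighth place by reads. A microRNA gene, Mir8113, shares 5.54% of its exon bases on the same strand, so reads there are uncertain.

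The fits without mouse 87 called more members, and more genes of the whole table. limma then called 2 of 16 members, Tnfrsf13b and Cd27, beside 9.57% of genes. edgeR called 2 of 16 (8.56% of genes), and DESeq2 called 1 of 14, Tnfrsf13b (17.2% of genes). Groups of 2 and 3 mice did not overlap in 6 of 16 members, beside 43.4% of genes. Mouse 87 was singled out by its profile in these same data, so these counts describe the other 5 mice.

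**Figure D3:**
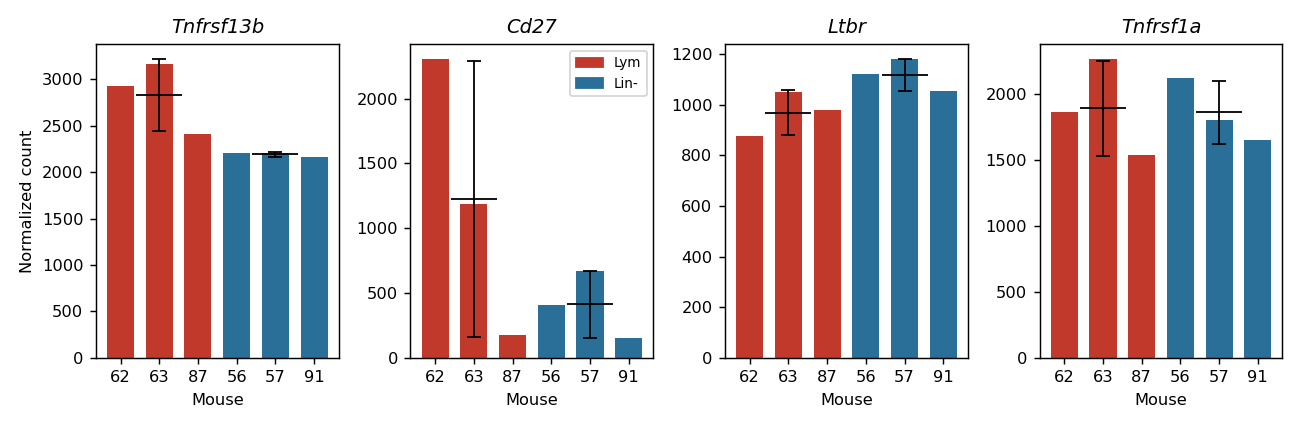
Normalized count of Tnfrsf13b, Cd27, Ltbr and Tnfrsf1a in each mouse (axes from 0), with the mean and SD of the 3 mice of each group. Tnfrsf13b is at 2409.7 or more in the Lym mice and at 2203 or less in the Lin- mice, while Cd27 runs from 152 to 2307.

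Some progenitor and lymphoid markers had the order of mice of Cd27 within both groups and others did not. The share of all genes with that order was not counted, so sharing it does not link a marker to Cd27. Kit, the receptor for stem cell factor, read 18902, 12027 and 3158 for Lym and 4953, 6066 and 3420.2 for Lin-, which is that order. Of the 5 progenitor markers Myb shared it too, while Cd34 read 6207, 6605 and 7099 for Lym, the reverse, and Flt3 and Ptprc broke it in at least 1 group. Il7r, Dntt, Rag1, Rag2 and Ebf1, which mark lymphoid progenitors, summed to 1165, 241 and 62.9 for Lym and 22.1, 44.0 and 17.5 for Lin-, and the sum had the order of Cd27 in both groups. Among the single genes Rag2 had it in both, Il7r read 2.65, 3.52 and 4.13 for Lin- and so broke it there, and Ebf1 read 59.4, 6.71 and 14.3 for Lym and broke it there. Dntt had it for Lym. Rag1 read 104, 2.24 and 1.91 for Lym, under the floor of 3 reads in mice 63 and 87, so their order is not settled. Dntt and Rag1 were at 0 in all Lin- libraries. The groups did not overlap in the lymphoid sum, and they did in Cd27 and Kit. 2 of the 5 lymphoid markers, Il7r and Rag2, were tested, both higher in Lym by log2 difference and neither called by limma. The authors' deposited DESeq2 table did call Rag2 (adjusted p = 0.0163), beside 0.32% of genes, and did not call Il7r (adjusted p = 0.411). The part of these cells in the level of Cd27 was not tested.

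Markers of other cells that could carry Cd27 were read beside it. 6 T-cell markers summed to 40.4, 15.7 and 24.8 for Lym and 1.76, 7.92 and 4.13 for Lin-, none was tested, and Cd8a was at 0 in every library. 4 NK-cell markers summed to 225, 61.5 and 17.2 for Lym and 18.5, 13.2 and 0 for Lin-, with Gzma at 0 in every library. Nkg7, the only one tested, made up the whole sum in Lym mouse 62, where Klrb1c and Ncr1 were at 0. 3 regulatory T-cell markers ran from 0 to 14.3 in Lym and 5.16 to 6.16 in Lin-, with Ctla4 at 0. 4 mast cell and basophil markers summed to 16203, 4184 and 562 for Lym and 394, 351 and 233 for Lin-. Cpa3 carried most of that sum in Lym mice 62 and 63 and had the order of Cd27 for Lym, while Ms4a2, Mcpt8 and Prss34 did not. Their part in the level of Cd27 was not tested.

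**Figure D4:**
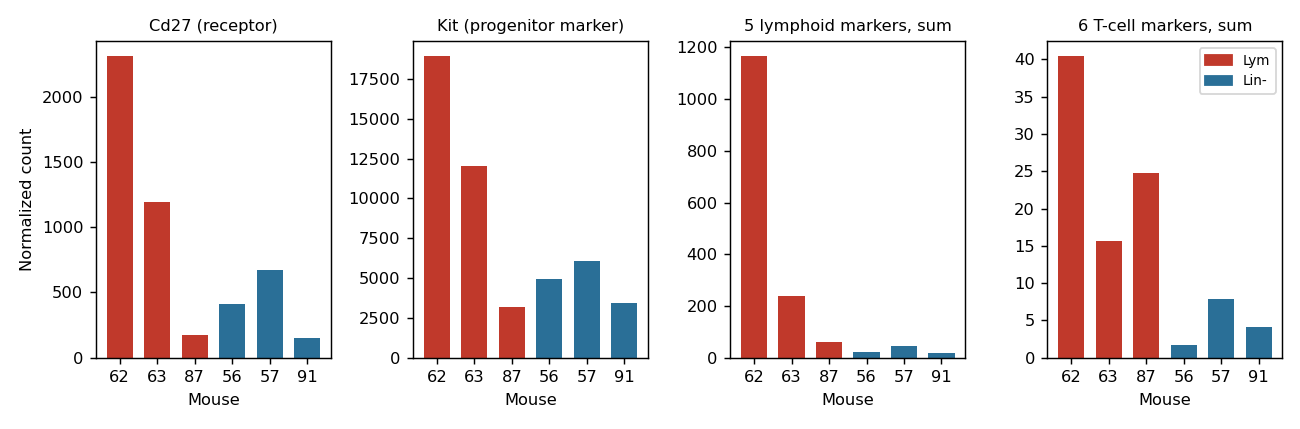
Normalized count per mouse of Cd27, of Kit, and of the summed lymphoid progenitor and T-cell markers (axes from 0, Lym and Lin- in separate colours). Cd27 and Kit have the same order of mice within each group, and the T-cell sum is at most 40.4. Of the other progenitor markers, not drawn, Myb has that order, while Cd34, Flt3 and Ptprc do not.

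The family members nearest to Cd27 on chromosome 6 did not share its spread. The levels of other genes there were not examined. Ltbr, the receptor for lymphotoxin and LIGHT, lies 69.6 kb from Cd27 (chromosome 6, 125306571 to 125313885, minus strand), and Tnfrsf1a, the TNF receptor with a death domain, a further 35.5 kb on. Ltbr read 875, 1049.6 and 980.5 for Lym and 1120.4, 1179 and 1053 for Lin-. All Lin- mice were above all Lym mice, by a narrow gap between Lym mouse 63 and Lin- mouse 91. Its log2 difference was -0.21 ± 0.13 (limma adjusted p = 0.590), and its within-group SD exceeded that of only 8.58% of genes. Tnfrsf1a read 1866, 2268 and 1542 for Lym and 2123, 1808 and 1655 for Lin-, with overlapping groups and a log2 difference of 0.013 ± 0.17 (95% interval -0.37 to 0.40).

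Of the 7 receptors with a death domain 4 were tested, 2 higher and 2 lower in Lym, with a median log2 difference of -0.058. Tnfrsf21, known as death receptor 6, read 1364, 1089.9 and 894 for Lym and 975, 933 and 926 for Lin-. Lym mice 62 and 63 were above the Lin- range and mouse 87 below it, and the log2 difference was 0.22 ± 0.17 (limma adjusted p = 0.655). Tnfrsf10b, the signalling TRAIL receptor of the mouse, read 38.1, 24.6 and 96.2 for Lym and 68.8, 29.9 and 58.8 for Lin-. Mouse 87 was the highest of all and mouse 63 the lowest, and the 95% interval of the log2 difference was -1.40 to 1.15. Fas, the receptor for Fas ligand, had 52 reads in all and read 4.49, 5.59 and 11.4 for Lym and 10.6, 3.52 and 15.5 for Lin- (log2 difference -0.29 ± 0.68). Tnfrsf25 and Ngfr were below the filter, with highest values of 11.2 in Lym mouse 63 and 10.5 in Lym mouse 87, and Edar had no read.

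Among the 6 costimulatory receptors of lymphocytes, 4 were tested, with a median log2 difference of 0.041. Tnfrsf14, known as HVEM, binds LIGHT and the inhibitory receptor BTLA. It read 569.7, 649 and 721 for Lym and 748, 899 and 753 for Lin-. Every Lin- mouse was above every Lym mouse, and mouse 87 was the Lym mouse nearest to Lin-. Its log2 difference was -0.31 ± 0.16 (95% interval -0.67 to 0.052, limma adjusted p = 0.525). Tnfrsf4 (OX40) and Tnfrsf18 (GITR), 9.55 kb apart on chromosome 4, were low and overlapped between groups. Tnfrsf4 read 33.6, 25.7 and 35.3 for Lym and 24.7, 50.2 and 38.2 for Lin- (log2 difference -0.20 ± 0.42). Tnfrsf18 read 51.6, 32.5 and 52.4 for Lym and 67.0, 17.6 and 39.2 for Lin- (log2 difference 0.28 ± 0.52). Lin- mouse 57 was thus the highest for Tnfrsf4 and the lowest for Tnfrsf18. The antisense gene Gm16008 shares 27.2% of the exon bases of Tnfrsf18, and the strand setting of the counting is not given, so its reads are uncertain. Tnfrsf8 (CD30) and Tnfrsf9 (4-1BB) reached 6.19 and 3.81 at most.

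The other TRAF-binding receptors included the steadiest members. Tnfrsf1b, the TNF receptor without a death domain, read 1117, 970.2 and 957 for Lym and 977, 974 and 1094 for Lin-. Its group means were both 1015, and the 95% interval of its log2 difference was -0.31 to 0.30. Relt, a receptor named for its expression in lymphoid tissue, stood at 469.6 ± 27.9 in Lym and 456 ± 83.7 in Lin- (SD, n = 3 each), with an interval of -0.36 to 0.48. Tnfrsf12a, known as Fn14, the receptor for TWEAK, stood at 19.8 ± 5.61 in Lym and 20.9 ± 5.47 in Lin- (SD, n = 3 each). Tnfrsf11a (RANK, which drives osteoclast formation) was below the filter but uneven, reading 0, 0 and 17.2 for Lym and 1.76, 0 and 20.6 for Lin-. Its reads thus lay almost wholly in Lym mouse 87 and Lin- mouse 91, the pair of libraries with the highest correlation across genes. Eda2r had reads in Lin- mouse 56 alone, 5 in number, and Tnfrsf19 had 1 read.

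Of the 4 decoy and soluble receptors 3 were tested, all higher in Lym by log2 difference and none called. Tnfrsf26, Tnfrsf22 and Tnfrsf23 lie in a row on chromosome 7, with gaps of 6.08 and 16.1 kb, and the last pair are decoy receptors for TRAIL in the mouse. Tnfrsf26 read 131, 71.6 and 39.1 for Lym and 51.2, 88.0 and 39.2 for Lin- (log2 difference 0.34 ± 0.50). Tnfrsf22 stood at 87.3 ± 8.98 in Lym and 75.4 ± 13.7 in Lin- (SD, n = 3 each, log2 difference 0.22 ± 0.30). Tnfrsf23 stood at 16.6 ± 6.81 in Lym and 10.5 ± 1.51 in Lin- (SD, n = 3 each, log2 difference 0.50 ± 0.54). The antisense gene E230032D23Rik shares 3.33% of the exon bases of Tnfrsf26 and 4.14% of those of Tnfrsf23. Tnfrsf11b, the soluble decoy osteoprotegerin, had no read.

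Few ligands of the family were present. Of 19 ligand genes 7 were tested, 4 higher and 3 lower in Lym, with 0 called by limma and a median log2 difference of 0.090. Per kb of exon the highest levels were those of Tnf (83.3) and Tnfsf14 (LIGHT, 62.0). Tnfsf10 (TRAIL) came next at 40.3 per kb, reading 398, 138 and 156 for Lym and 220, 194 and 167 for Lin-. Tnf read 68.4, 115 and 183 for Lym and 116, 175 and 162 for Lin-, lowest in mouse 62 and highest in mouse 87. Tnfsf14 read 127, 99.6 and 144 for Lym and 122, 112 and 83.5 for Lin-, and it also had the highest log2 difference (0.22 ± 0.29). The lowest was that of Tnfsf13 (APRIL, -1.10 ± 1.07), and both intervals spanned 0. Cd70, the ligand of Cd27, had no read in any library. Tnfsf13b (BAFF), a ligand of Tnfrsf13b, read 74.0, 25.7 and 6.67 for Lym and 8.82, 37.0 and 30.9 for Lin-. The lymphotoxin chains Ltb and Lta reached 20.2 and 2.06 at most.

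The genes that carry the receptors' signals were mostly abundant, and limma called 0 in each list. Of 11 TRAF adaptors and ligases 10 were tested, 8 higher and 2 lower in Lym, with a median log2 difference of 0.078. Highest per kb of exon were Xiap, a caspase inhibitor (291), which stood at 2923 ± 467 in Lym and 2589 ± 217 in Lin-, and Traf7 (274), which stood at 1620.2 ± 231 in Lym and 1596 ± 178 in Lin- (SD, n = 3 each). Traf4 had the highest log2 difference (0.99 ± 0.43, limma adjusted p = 0.485), reading 126, 60.4 and 60.0 for Lym and 51.2, 27.3 and 38.2 for Lin-. Tank, a TRAF-binding protein, had the lowest (-0.43 ± 0.14, limma adjusted p = 0.441), reading 1179.8, 1012 and 1209 for Lym and 1504, 1730.2 and 1360.4 for Lin-. The groups did not overlap in 1 gene of the list that was higher, Traf4, and 1 that was lower, Tank, beside 8.49% and 7.08% of all genes.

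Of 17 death domain adaptors and partners, all tested, 8 were higher and 9 lower in Lym, with a median log2 difference of -0.0014. Highest per kb of exon were Mlkl, the effector of necroptosis (1239.7), which stood at 2843 ± 57.5 in Lym and 2867 ± 209 in Lin-, and Casp8, the caspase that death receptors activate (1069), which stood at 3395 ± 641 in Lym and 2792 ± 89.5 in Lin- (SD, n = 3 each). Cflar, an inhibitor of that caspase, had the highest log2 difference (0.43 ± 0.20), reading 3491, 3228 and 2102 for Lym and 2106, 2475 and 1847 for Lin-. Mouse 87 was below Lin- mice 56 and 57 in it. Cradd, an adaptor with a death domain, had the lowest (-0.49 ± 0.31). The groups did not overlap in 2 genes of this list that were higher and 1 that was lower, beside 8.49% and 7.08% of all genes.

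Of 12 genes of the NF-kB list, all tested, 10 were higher and 2 lower in Lym, with a median log2 difference of 0.30 beside -0.010 over all genes. The groups did not overlap in 5 that were higher and 1 that was lower, beside 8.49% and 7.08% of all genes. Relb, the partner of Nfkb2 in the alternative arm, had the highest log2 difference (1.16 ± 0.44, limma adjusted p = 0.458). It read 159, 109 and 56.2 for Lym and 43.2, 56.3 and 33.0 for Lin-, and Lym mouse 87 and Lin- mouse 57 were level. Highest per kb of exon were Nfkbia, the inhibitor that holds NF-kB in the cytoplasm (673), which stood at 1139.7 ± 234 in Lym and 1028 ± 74.6 in Lin-, and Rela, an NF-kB subunit (535), which stood at 1817 ± 43.6 in Lym and 1471 ± 119 in Lin- (SD, n = 3 each). Bcl3 had the lowest log2 difference (-0.18 ± 0.33). Of 5 genes of receptor shedding 3 were tested, with a median log2 difference of 0.21. Adam17, the protease that releases TNF from the cell surface, had the highest log2 difference (0.47 ± 0.24), reading 3501, 2549 and 1644 for Lym and 1907, 1743 and 1649 for Lin-. Adam10, a related protease, had the lowest (-0.12 ± 0.14). These were also the highest of the list per kb of exon, at 1012 for Adam10 and 303 for Adam17.

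**Figure D5:**
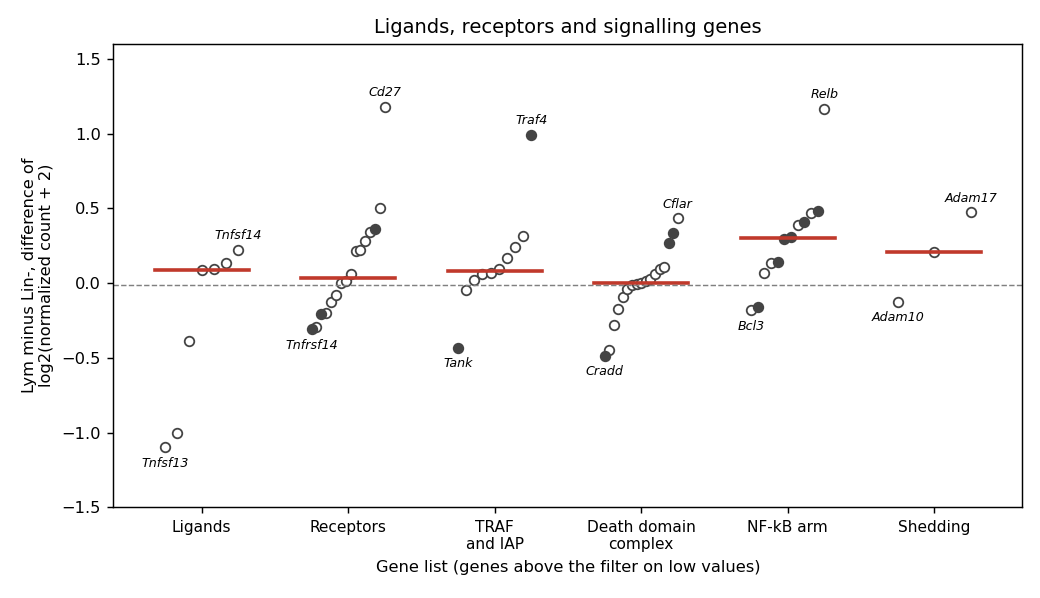
Lym minus Lin- difference of log2(normalized count + 2) for each tested gene of the receptors, ligands, TRAF and ligase genes, death domain complex, NF-kB list and shedding genes, with list medians as red bars and the median of all genes as a dashed line. Filled points are genes whose groups do not overlap. The median of the NF-kB list is 0.30 and that of the receptors 0.036.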

How the data were processed

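Total RNA of 3 Lym and 3 Lin- samples was sequenced, with 12 PCR cycles and 38-base reads per the labels' protocols. The submitters' processing notes name Trim Galore 0.6.4, STAR 2.6.1d, featureCounts 1.6.4, DESeq2 and the build GRCm38.p6. The annotation release and strand setting are not given in the sources used here. The deposited signal of each library is its gene count over a size factor. All values up to 10000 (100%, tolerance 0.01) were multiples of what 1 read is worth, so whole-read counts were recovered from the deposited values. Per the file headers, the authors also gave a mean, a log2 fold change, a Wald score and a p-value.

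limma 3.58.1 with a trend (R 4.3.3) was fitted to log2(normalized count + 2) over 14273 genes that reached 10 normalized counts in 3 libraries. edgeR 4.0.16 with TMM and DESeq2 1.42.0 used the recovered counts. Scaling, tool, filter, pseudocount and leaving out each mouse were varied, and the fits were tested on simulated data. Exon lengths and positions are those of the deposited table.

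The members and lists were chosen with earlier results of these data known. Every tested member is named, with the 2 most abundant genes per kb of exon and those of highest and lowest log2 difference in each pathway list. Cd70, Tnfsf10, Tnfsf13b, Ltb and Lta were named after their values were seen. 1 marker of the B-cell list is not reported here. The other marker sums ran from 1.12 to 15.2 in Lym and 3.09 to 57.2 in Lin- for neutrophils, 1079.5 to 1466 in Lym and 1023 to 1807 in Lin- for macrophages (mostly Adgre1), 2.86 to 6.73 in Lym and 0.882 to 16.7 in Lin- for erythroid cells, 46.7 to 549.5 in Lym and 18.6 to 46.8 in Lin- for megakaryocytes (mostly Itga2b), 9.53 to 25.7 in Lym and 2.06 to 9.68 in Lin- for stromal cells and 6693 to 9417 in Lym and 4973 to 6034 in Lin- for endothelial cells (mostly Pecam1).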

Additional observations from a re-analysis of the deposited data

How the results depend on the processing

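No paired analysis was possible because the groups share no mouse number. The count of genes called was 0 with limma, 211 with DESeq2, 5 with no filter, 1 with a pseudocount of 8, and 0 with TMM scaling, edgeR or a pseudocount of 0.5. With 1 mouse left out it ranged from 0 to 1366, the highest without Lym mouse 87 and 1 without Lin- mouse 91. Without Lym mouse 87, edgeR called 1222 and DESeq2 2263, a pair of fits chosen after seeing the data. Members called ranged from 0 to 2 with 1 mouse left out, and without Lym mouse 87 were 2 in edgeR and 1 in DESeq2. Members whose groups do not overlap ranged from 3 to 6, beside 15.4% to 43.4% of all genes, both highest without Lym mouse 87. With 1 mouse left out, the median log2 difference ranged from 0.0092 to 0.12 for the members, -0.44 to 0.10 for the ligands, 0.057 to 0.15 for the TRAF list, -0.055 to 0.046 for the death domain list, 0.25 to 0.32 for the NF-kB list and 0.12 to 0.25 for shedding. The death domain median was -0.063 with edgeR and -0.061 with DESeq2 without Lym mouse 87, and the shedding median was 0.47 with no filter. With no filter the median of all genes was 0.15. 9 members changed sign in some setting. With 1 mouse left out they ranged from -0.77 to 0.064 (Fas), -0.074 to 0.19 (Relt), -0.66 to 0.28 (Tnfrsf10b), -0.28 to 0.10 (Tnfrsf12a), -0.20 to 0.71 (Tnfrsf18), -0.13 to 0.15 (Tnfrsf1a), -0.073 to 0.053 (Tnfrsf1b), -0.082 to 0.77 (Tnfrsf26) and -0.46 to 0.023 (Tnfrsf4). Tnfrsf10b was at 0.015 with edgeR and 0.019 with DESeq2, Tnfrsf1a at -0.0030 with TMM scaling, and Tnfrsf1b at 0.038 with edgeR and 0.041 with DESeq2 without Lym mouse 87. Cd27 ranged from 0.41 to 2.25 and Tnfrsf13b from 0.28 to 0.47 with 1 mouse left out. The cause was not tested.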
